A study of Saccharomyces cerevisiae with 9 samples.

Results

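RNA levels were compared between a yeast strain labelled as lacking both CDP-alcohol phosphotransferase genes, CPT1 and EPT1 (cpt1Δ ept1Δ), and its wild type (WT), across all genes with enough counts to test. The comparison uses 6 of the 9 libraries of the series, 3 of cpt1Δ ept1Δ and 3 of WT, taken by their labels, and 6081 of 7122 genes in the table, with CPT1 and EPT1 themselves set aside. All strains were prototrophic Saccharomyces cerevisiae in the CEN.PK laboratory strain background, grown to log phase in minimal synthetic medium with 2% glucose. The WT carried no deletion, and the remaining 3 libraries came from a strain without ECT1 and PCT1 (ect1Δ pct1Δ), which lacks the step before. The labels name no time point or drug, do not say how many clones were sequenced and do not say that replicates were separate cultures, so the tests weigh differences against a spread between libraries that may be purely technical. In bulk RNA, fewer cells that express a gene and less RNA per cell cannot be told apart.

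CPT1 and EPT1 encode the enzymes of the last step of the CDP-choline and CDP-ethanolamine branches, also called the Kennedy pathway. Choline or ethanolamine is phosphorylated, activated with CTP to a CDP-alcohol and then joined to diacylglycerol, which gives phosphatidylcholine or phosphatidylethanolamine. Cpt1 mainly uses CDP-choline, and Ept1 takes both CDP-ethanolamine and CDP-choline. Yeast cells also make both lipids from CDP-diacylglycerol by way of phosphatidylserine, so they can grow without the CDP-alcohol branches. Both routes draw on phosphatidate, and phosphatidate and inositol set the activity of the Opi1 repressor and the Ino2/Ino4 activator of lipid genes.

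The deleted genes encode closely related membrane enzymes. Their coding sequences, 1182 bases for CPT1 and 1176 for EPT1 in 2 exons each, were identical at 738 of 1154 aligned bases (64%), and 221 of 391 aligned encoded residues (56.5%) were the same. The stretch given here codes for the motif that gives the CDP-alcohol phosphotransferase family its activity, codons 99 to 121 in both genes. It is shown because it is the shared catalytic core that the mutant is labelled as lacking. Capitals mark the codons of the 7 residues that define the motif, and 45 of the 69 bases (65.2%) were the same in both genes.
CPT1, chromosome XIV, 380377 to 380445, minus strand: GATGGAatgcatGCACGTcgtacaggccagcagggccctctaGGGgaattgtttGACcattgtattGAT
EPT1, chromosome VIII, 355200 to 355268, plus strand: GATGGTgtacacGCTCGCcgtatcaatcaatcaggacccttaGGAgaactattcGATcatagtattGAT

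CPT1 transcripts were counted 2502, 1407 and 1457 times in WT replicates 1, 2 and 3, and 5, 2 and 2 times in cpt1Δ ept1Δ. EPT1 transcripts were counted 1660, 1000 and 854 times in WT and 4, 1 and 0 times in cpt1Δ ept1Δ. Both genes were thus nearly silent in each library labelled as lacking them. Scaled to the library totals, the pooled counts were 0.126% of the WT level for CPT1 (95% exact binomial interval 0.0577 to 0.240%) and 0.107% for EPT1 (0.0348 to 0.250%), where the intervals cover counting error only. PAH1 and DGK1, which the design text of the series names as deleted genes, were expressed throughout. PAH1 stood at 54.1 ± 3.57 CPM (counts scaled to library size, mean ± SD, n = 3) in WT and 53.6 ± 3.95 in cpt1Δ ept1Δ, and DGK1 at 108 ± 3.08 and 111 ± 0.897.

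The genes beside the deleted loci were checked as well. KRE33, TOM22, DGR1 and NRK1 flank CPT1, with log2 fold changes of cpt1Δ ept1Δ over WT of -0.08, 0.06, -0.67 and -0.05. LSM12, CIA2 and NDT80 flank EPT1, with 0.04, 0.22 and -0.52. None of these 7 passed an adjusted p of 0.05 (edgeR, Benjamini-Hochberg; lowest 0.180, for NDT80). The largest change of the 7 was that of DGR1, which lies 413 bases from CPT1, with a higher adjusted p than NDT80. NDT80, the activator of middle meiotic genes, starts 479 bases beyond EPT1. It stood at 21.7, 22.2 and 18.1 CPM in WT and at 14.7, 13.7 and 14.9 in cpt1Δ ept1Δ, so its groups did not overlap, and it was at -0.54 ± 0.13 against ect1Δ pct1Δ (edgeR, Benjamini-Hochberg adjusted p = 0.184).

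The 6 libraries held 6141426 to 11429517 counts, and the 10 highest genes took 9.86 to 10.6% of them. Of all 9 libraries, WT replicate 3 stood apart on the main axis of variation (23.0% of the variance), and its cytosolic ribosomal protein genes were 0.15 above the WT mean on the log2 scale. Replicate 3 of cpt1Δ ept1Δ held 191 CPM of mitochondrial ribosomal RNA, against 7.30 and 3.02 in the other cpt1Δ ept1Δ libraries and 6.03 to 34.4 in WT. Without WT replicate 3 and cpt1Δ ept1Δ replicate 3, 9 genes were called in place of 6.

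Loss of both enzymes left nearly the whole transcriptome within a narrow band around WT. The log2 fold changes had a median of -0.00 and a median size of 0.06, which is below the median standard error of 0.085. Of the 6081 genes, 79.7% lay within 1.1-fold of WT and 98.8% within 1.5-fold. The precision of the libraries bounds this statement: the 95% interval of the change lay within 1.5-fold for 87.6% of genes and within 2-fold for 96.1%. With the genes split by level into 4 groups of equal size, 51.9% of the lowest group, up to 22.8 CPM, had an interval within 1.5-fold, against 99.1 to 99.9% of the others. Of the 15 genes at or beyond 2-fold, 10 had a mean below 5 CPM, and only YDL057W passed the test.

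**Figure D1:**
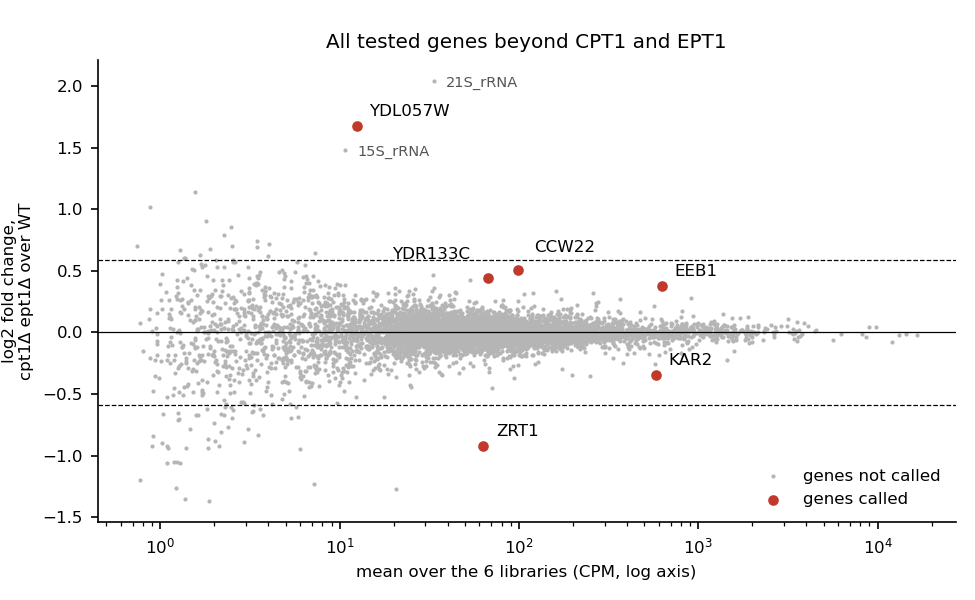
Log2 fold change of cpt1Δ ept1Δ over WT (y axis) against the mean level over the 6 libraries in CPM (x axis, log scale) for each of 6081 genes. Red points are the 6 genes called by edgeR, dashed lines mark 1.5-fold, and 21S_rRNA and 15S_rRNA are the mitochondrial ribosomal RNAs, which were high in 1 library. Most genes lie in a band around 0 that widens at low levels.

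By edgeR's quasi-likelihood test with Benjamini-Hochberg adjustment, 6 of 6081 genes (0.0987%) differed from WT at an adjusted p below 0.05, of which 4 (0.0658%) were higher and 2 (0.0329%) lower. The higher genes were YDL057W, CCW22, YDR133C and EEB1, and the lower genes were ZRT1 and KAR2. At an unadjusted p below 0.05 stood 319 genes (5.25%), 157 higher (2.58%) and 162 lower (2.66%). Groups whose libraries did not overlap were found for 633 genes (10.4%), 319 higher (5.25%) and 314 lower (5.16%). Such groups reach a p of 0.1, and no lower, in an exact permutation test of 3 libraries against 3. The shares of 5.25% at an unadjusted p below 0.05 and 10.4% without overlap are thus near what no difference would give. Lack of overlap in an uncalled gene is a description only. The number called depended on the method and on single libraries: DESeq2 called 14 genes, including all 6, and edgeR called 2 without cpt1Δ ept1Δ replicate 2.

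YDL057W, an uncharacterised open reading frame on chromosome IV (351434 to 352420), showed the largest called change beyond the deleted genes. Its level was 6.44, 6.98 and 4.15 CPM in WT and 18.4, 19.0 and 19.5 CPM in cpt1Δ ept1Δ. The mutant libraries lay close together, well above every WT library. The rise was 3.19-fold (95% interval 2.54 to 4.01), a log2 fold change of 1.67 ± 0.16 (SE) (Benjamini-Hochberg adjusted p = 9.40e-06 by edgeR). In ect1Δ pct1Δ the gene stood at 19.9, 22.8 and 20.8 CPM, and the difference between the deletion strains was -0.16 ± 0.13. It shared no stretch of its length with another annotated gene, and it was called in all 19 alternative settings.

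ZRT1 (YGL255W, chromosome VII, 20978 to 22108 in build R64) encodes the high-affinity zinc transporter of the plasma membrane, a main target of the zinc-sensing activator Zap1. It stood at 78.9, 87.4 and 83.2 CPM in WT and at 30.7, 46.5 and 52.5 CPM in cpt1Δ ept1Δ. The mutant libraries differed among themselves more than those of WT, but each was below each WT library. The level fell to 52.7% of WT, a log2 fold change of -0.92 ± 0.12 (Benjamini-Hochberg adjusted p = 0.00129 by edgeR). It was -0.75 without cpt1Δ ept1Δ replicate 1, the lowest library, and was still called there and in the other 18 settings. The ect1Δ pct1Δ libraries were at 43.7, 47.6 and 42.8 CPM, a difference of -0.04 ± 0.13 between the strains.

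The promoter of ZRT1 holds a perfect copy of the zinc-responsive element bound by Zap1, which reads ACCTT, any base, then AAGGT. Searched on both strands of the 300 bases before the start codon, the element was found in 6 of 5626 promoters (0.107%), and these are shown because they allow ZRT1 to be set beside the other genes with the same letters. Capitals mark the element, with 30 bases on either side, read on the strand of the gene.
ZRT1, chromosome VII, 20744 to 20814, plus strand: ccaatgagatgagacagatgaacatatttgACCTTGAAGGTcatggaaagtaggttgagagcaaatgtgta
ZRG17, chromosome XIV, 699475 to 699545, minus strand: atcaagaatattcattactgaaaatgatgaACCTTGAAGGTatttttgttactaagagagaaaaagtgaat
MCD4, chromosome XI, 140755 to 140825, minus strand: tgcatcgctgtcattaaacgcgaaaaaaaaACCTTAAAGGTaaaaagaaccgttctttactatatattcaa
PCD1, chromosome XII, 442944 to 443014, minus strand: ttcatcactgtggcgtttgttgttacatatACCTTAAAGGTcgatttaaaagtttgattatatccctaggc
The other 2 promoters are those of PAN1 and of MRX15, which shares its element with the neighbouring ZRG17. Of the 6 genes, ZRT1 was called, and the rest had log2 fold changes of -0.04 (ZRG17, a subunit of a zinc transporter of the endoplasmic reticulum), -0.01 (MCD4, an enzyme of GPI anchor synthesis), 0.07 (PCD1), -0.09 (PAN1) and 0.13 (MRX15). A match is a description of letters in a window and does not show that a factor binds there.

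The other genes of zinc supply were not called. The list of zinc transporters and Zap1 targets had 20 tested members with a median log2 fold change of -0.04, 5 above 0 and 15 below, against 49.2% of all genes above 0. ZRT1 was the 1 member called, and the 1 at an unadjusted p below 0.05. For 17 of the 20 the 95% interval lay within 1.5-fold; IZH4, at about 1 CPM, had the highest value, 0.37 ± 0.46. ZAP1 itself, which activates its own gene, was at 51.8, 44.1 and 43.7 CPM in WT and at 39.1, 47.4 and 47.5 in cpt1Δ ept1Δ, so the groups overlapped, and the change was -0.06 (95% interval -0.26 to 0.13). The low-affinity transporter gene ZRT2 was at -0.04, the vacuolar zinc exporter gene ZRT3 at -0.08, the vacuolar importer gene ZRC1 at -0.01 and the low-affinity metal transporter gene FET4 at 0.11. The secreted protein gene ZPS1 and the alcohol dehydrogenase gene ADH4, strong targets of Zap1 in zinc-poor cells, were at -0.12 and -0.04.

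KAR2 (YJL034W, chromosome X, 381327 to 383375) encodes BiP, the Hsp70 chaperone inside the endoplasmic reticulum (ER), which folds secretory proteins and keeps the stress sensor Ire1 inactive. It stood at 630, 655 and 663 CPM in WT and at 515, 490 and 525 CPM in cpt1Δ ept1Δ. No mutant library reached a WT library. The level fell to 78.5% of WT, a log2 fold change of -0.35 ± 0.05 (Benjamini-Hochberg adjusted p = 0.00499 by edgeR), which rose to 0.0815 without cpt1Δ ept1Δ replicate 2. In ect1Δ pct1Δ it was at 525, 564 and 534 CPM, a difference of -0.09 ± 0.05 between the strains.

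Genes that work with Kar2 were looked at next. The ER Hsp70 list had 9 tested members with a median of -0.05, and KAR2 was the 1 called. Of these members 2 were above 0 and 7 below, against 49.2% of all genes above 0. HAC1, the transcription factor of the unfolded protein response, stood at 391, 436 and 405 CPM in WT and at 343, 343 and 354 CPM in cpt1Δ ept1Δ, groups that did not overlap. Its change was -0.24 ± 0.05, which missed the threshold (edgeR, Benjamini-Hochberg adjusted p = 0.122), and DESeq2 called it (0.00839). HAC1 overlaps 2 other annotated genes on chromosome VI, by at most 102 bases. Without a stated use of strand, reads of the shared bases cannot be told apart. The Kar2 nucleotide exchange factor genes LHS1 and SIL1 were at -0.14 ± 0.07 and -0.04 ± 0.07, the J-protein genes JEM1, SCJ1, SEC63 and ERJ5 at -0.11, 0.00, -0.04 and 0.02, and the sensor gene IRE1 at -0.05.

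Both KAR2 and LHS1 hold the core of the unfolded protein response element of Hac1, CAGCGTG, searched on both strands, which was found in 69 of 5626 promoters (1.23%) and in these 2 of the 9 genes. The stretches are shown because these are the list members with the element. Capitals mark the core, which LHS1 holds on the opposite strand.
KAR2, chromosome X, 381137 to 381203, plus strand: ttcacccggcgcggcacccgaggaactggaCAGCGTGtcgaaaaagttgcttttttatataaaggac
LHS1, chromosome XI, 296301 to 296367, plus strand: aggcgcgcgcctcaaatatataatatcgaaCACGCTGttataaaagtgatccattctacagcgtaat
The genes of oxidative folding and glycan trimming, 14 tested, had a median of -0.04 (-0.07 to 0.01 over the alternatives) and 0 called. Of these, 6 were above 0 and 8 below, against 49.2% of all genes above 0. ERO1, the oxidase that feeds disulfide bonds into the ER, stood at 141, 147 and 153 CPM in WT and at 128, 128 and 132 in cpt1Δ ept1Δ. That is a change of -0.18 ± 0.06 without overlap (edgeR, Benjamini-Hochberg adjusted p = 0.610). PDI1, the main protein disulfide isomerase, was at -0.13 ± 0.06. N-glycosylation (24 tested, median -0.01), ER-associated degradation (15 tested, -0.02) and translocation into the ER (12 tested, -0.01) also had 0 called.

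EEB1 (YPL095C, chromosome XVI, 368071 to 369441) encodes an acyltransferase that makes ethyl esters from medium-chain fatty acids. It stood at 511, 562 and 561 CPM in WT and at 657, 706 and 753 CPM in cpt1Δ ept1Δ. All mutant libraries were above all WT libraries. The rise was 1.30-fold (95% interval 1.18 to 1.43), a log2 fold change of 0.37 ± 0.06 (Benjamini-Hochberg adjusted p = 0.0155 by edgeR). The call was lost in 6 of 19 settings, among them without WT replicate 1 (0.127), without cpt1Δ ept1Δ replicate 2 (0.104) or 3 (0.139), and with limma (up to 0.0887). In ect1Δ pct1Δ it was at 860, 777 and 762 CPM, a difference of -0.18 ± 0.06 between the strains (edgeR, Benjamini-Hochberg adjusted p = 0.711). The other 4 genes of ester metabolism were not called: its paralog EHT1 was at 0.09, the alcohol acetyltransferase genes ATF1 and ATF2 at -0.09 and -0.14, and the esterase gene IAH1 at 0.01.

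CCW22, annotated as a cell wall protein, and YDR133C, an open reading frame on the same strand, overlap by 227 bases on chromosome IV (721071 to 721481 for CCW22 and 720962 to 721297 for YDR133C). Reads of the shared bases cannot be told apart, so their values are treated as 1 observation. CCW22 stood at 92.7, 80.4 and 68.8 CPM in WT and at 121, 117 and 108 CPM in cpt1Δ ept1Δ. YDR133C stood at 60.0, 56.3 and 54.3 CPM in WT and at 81.1, 77.5 and 74.7 CPM in cpt1Δ ept1Δ. The groups did not overlap for either gene. The rises were 1.42-fold and 1.36-fold, log2 fold changes of 0.50 ± 0.08 and 0.44 ± 0.07, with edgeR Benjamini-Hochberg adjusted p-values of 0.0114 and 0.00890. Both calls were lost without WT replicate 2 (0.0664 and 0.0588), without cpt1Δ ept1Δ replicate 1 (0.0841 and 0.0749) or replicate 2 (0.0844 and 0.0755), and that of CCW22 also with limma (up to 0.107). CCW22 was at 95.4, 93.6 and 93.4 CPM in ect1Δ pct1Δ, a difference of 0.29 ± 0.08 between the strains (edgeR, Benjamini-Hochberg adjusted p = 0.376).

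**Figure D2:**
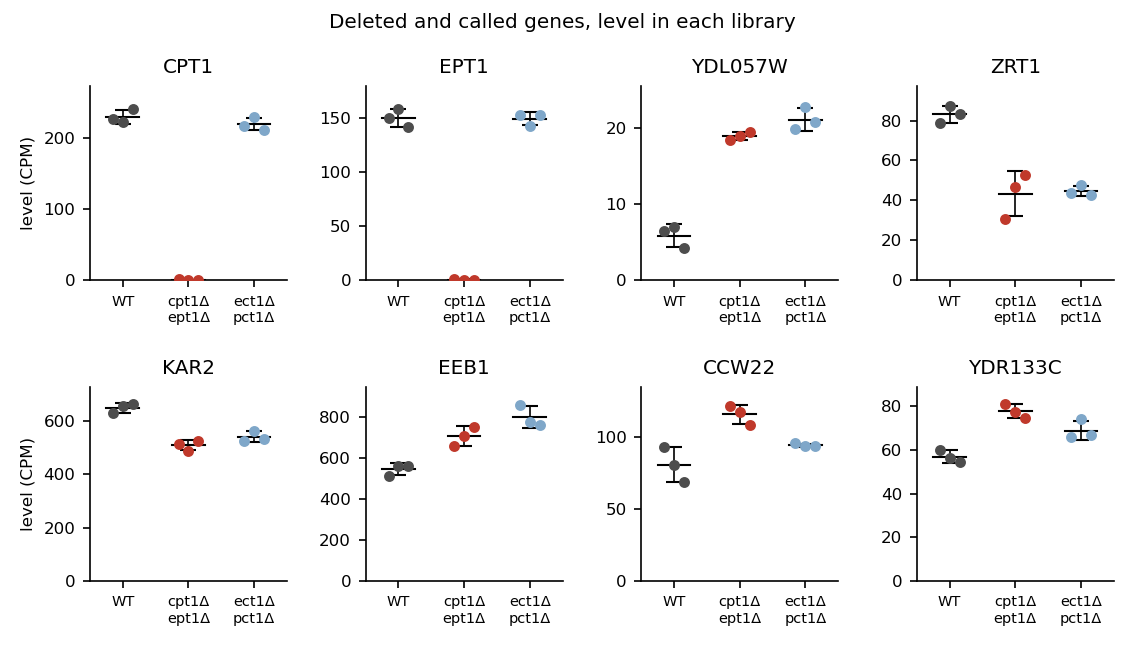
Level in CPM (y axis, from 0) of CPT1, EPT1 and the 6 called genes in each library of WT (grey), cpt1Δ ept1Δ (red) and ect1Δ pct1Δ (blue); lines and bars are the mean ± SD of 3 libraries. In all panels the red points do not overlap the grey ones, and YDL057W, ZRT1 and KAR2 have similar levels in both deletion strains.

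None of the 6 called genes passed the direct test between the deletion strains, which share their WT libraries in comparisons with WT (edgeR, Benjamini-Hochberg adjusted p from 0.376 to 0.999). The 95% interval of the difference ran from -0.44 to 0.11 for YDL057W, from -0.32 to 0.23 for ZRT1 and from -0.20 to 0.03 for KAR2. In the direct test 8 of 6079 genes (0.132%) were called beyond the 4 deleted genes, and 283 (4.66%) had an unadjusted p below 0.05.

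No gene of phospholipid synthesis beyond CPT1 and EPT1 was called in the 4 lists examined. In the CDP-alcohol branches, the 5 genes left intact had a median log2 fold change of -0.01 and 0 called. HNM1, the choline transporter gene, stood at 712, 713 and 709 CPM in WT and at 741, 692 and 715 in cpt1Δ ept1Δ. The genes PCT1 and ECT1, whose enzymes make the CDP-alcohols that Cpt1 and Ept1 use, were at -0.02 ± 0.06 and -0.01 ± 0.07. CKI1, the choline kinase gene, was at 0.08 ± 0.06. EKI1, the ethanolamine kinase gene, was at 64.6, 76.4 and 66.6 CPM in WT and at 54.0, 62.1 and 60.4 in cpt1Δ ept1Δ. Its groups did not overlap, and its change of -0.22 ± 0.08 did not pass (edgeR, Benjamini-Hochberg adjusted p = 0.682).

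The route from CDP-diacylglycerol, the other source of both lipids, did not differ detectably. Its 11 tested genes had a median of -0.01, 5 above 0, 0 called and 0 at an unadjusted p below 0.05, and for all 11 the 95% interval lay within 1.5-fold. CHO1, the phosphatidylserine synthase gene, stood at 411, 446 and 485 CPM in WT and at 484, 415 and 463 in cpt1Δ ept1Δ, groups that overlapped. The methyltransferase genes CHO2 and OPI3, which turn phosphatidylethanolamine into phosphatidylcholine, were at -0.01 (95% interval -0.13 to 0.11) and -0.02 (-0.17 to 0.13). The phosphatidylserine decarboxylase genes PSD1 and PSD2 were at -0.02 and -0.10. PIS1, the phosphatidylinositol synthase gene, had the largest change of the list, 0.12 (-0.01 to 0.26), and the genes of cardiolipin synthesis PGS1, GEP4 and CRD1 were at -0.01, 0.06 and 0.04.

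Enzymes that make and use phosphatidate and diacylglycerol, the second substrate of the deleted step, had a median of 0.03 over 17 tested genes. Of these, 12 were above 0 (49.2% of all genes), 0 were called, and all 17 intervals lay within 1.5-fold. GPT2, an acyltransferase at the start of glycerolipid synthesis, stood at 40.0, 39.3 and 35.5 CPM in WT and at 46.9, 46.4 and 42.6 in cpt1Δ ept1Δ. It did not overlap between groups, with a change of 0.24 ± 0.09 (edgeR, Benjamini-Hochberg adjusted p = 0.767). DGA1 and LRO1, which turn diacylglycerol into storage triacylglycerol, were at 0.18 ± 0.08 and 0.11 ± 0.06. The phosphatase gene PAH1 and its activators NEM1 and SPO7 were at -0.02, 0.05 and 0.03, and the kinase gene DGK1 at 0.04.

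The inositol genes held 0 called members, and INO1 varied most between libraries among them. INO1, which makes inositol from glucose 6-phosphate and is a sensitive target of Opi1, stood at 94.0, 116 and 128 CPM in WT and at 146, 68.1 and 85.7 in cpt1Δ ept1Δ. Replicate 1 of the mutant was above every WT library and replicate 2 below every one. The change was -0.18 with a 95% interval from -0.58 to 0.22. The 8 tested genes of inositol and its control had a median of -0.05. INO2, INO4 and OPI1 were at -0.08, -0.04 and 0.04, and the inositol transporter gene ITR1, at 2159 CPM in WT, was at 0.00. The core of the Ino2/Ino4 element, CATGTG on either strand, was found in 7 of the 11 promoters of the CDP-diacylglycerol list and 4 of the 8 of the inositol list, against 6.97% of 5626 promoters.

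**Figure D3:**
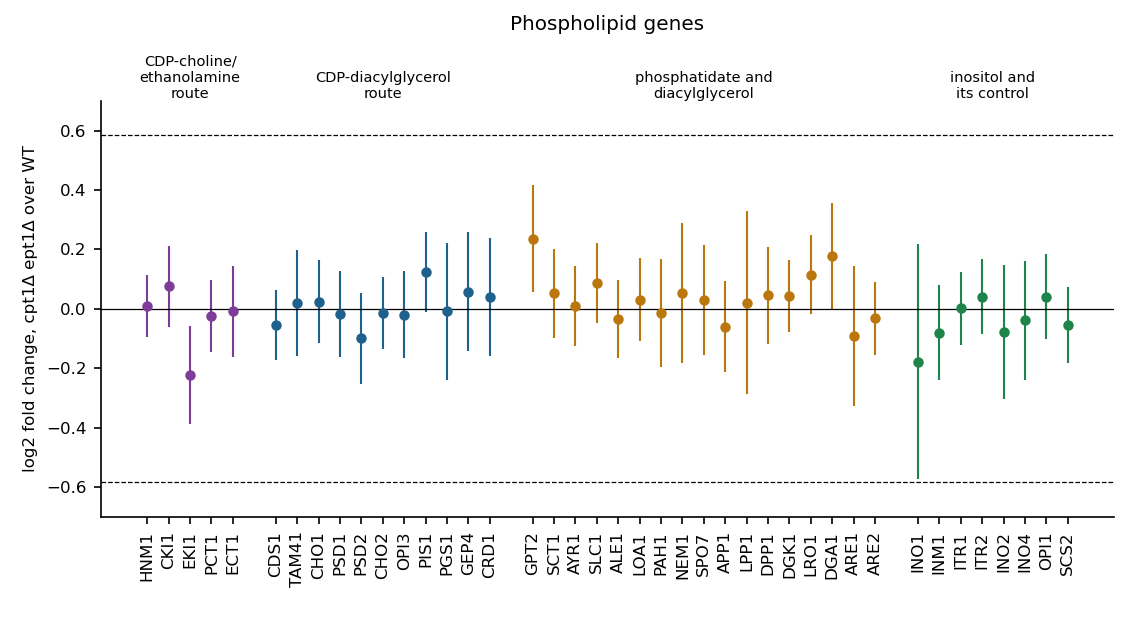
Log2 fold change of cpt1Δ ept1Δ over WT (points) with its 95% interval (lines) for the tested genes of 4 phospholipid lists; dashed lines mark 1.5-fold. All intervals lie within the dashed lines, and the widest is that of INO1.

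Other lipid genes also held few differences. Lipases and phospholipases (18 tested), flippases (10) and lipid transfer proteins (16) had medians of -0.01, -0.02 and -0.00 with 0 called. PLB2, a phospholipase B gene, was at -0.16 ± 0.07, and GIT1, the transporter gene for glycerophosphodiesters, at 0.42 ± 0.20 from 6.46 ± 0.377 CPM in WT. Fatty acid synthesis (20 tested) had a median of 0.01 with 0 called. FAA1, the main acyl-CoA synthetase gene for imported fatty acids, stood at 256, 264 and 239 CPM in WT and at 299, 294 and 309 in cpt1Δ ept1Δ. Its groups did not overlap, and its change of 0.25 ± 0.06 missed the threshold (edgeR, Benjamini-Hochberg adjusted p = 0.177). DESeq2 called FAA1 (adjusted p = 0.0417), and the other 18 settings did not. Sphingolipid synthesis (25 tested) had a median of -0.01, with LAG1, a ceramide synthase gene, at 0.17 ± 0.06 and the ceramidase gene YDC1 at 0.17 ± 0.06.

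Ergosterol synthesis genes were slightly below WT in 23 of 27 cases and above it in 4, against 49.2% of all genes above 0. Their median was -0.04, with 0 called. At an unadjusted p below 0.05 were 2 genes, both lower, beside 2.66% of all genes. These were ERG1, the squalene epoxidase gene (-0.11 ± 0.05), and NCP1, the reductase gene that supplies electrons to sterol enzymes (-0.12 ± 0.06). The mean of the list relative to WT was 0.01, -0.02 and 0.01 in the WT libraries and -0.03, -0.08 and -0.04 in cpt1Δ ept1Δ on the log2 scale. The groups did not overlap but lay within 0.1 of each other. They almost touched, at -0.021 in WT replicate 2 and -0.027 in cpt1Δ ept1Δ replicate 1. In ect1Δ pct1Δ the means were -0.07, -0.07 and -0.13.

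Genes of oxidative phosphorylation lay a little above WT almost without exception. Of 39 tested members 38 had a positive log2 fold change, with a median of 0.11, beside 49.2% positive and a median of -0.00 over all genes. None was called. At an unadjusted p below 0.05 were 11 members, all higher, beside 2.58% of all genes, and 11 did not overlap, all higher, beside 5.25% of all genes. The largest in relation to its error was SDH4, a membrane subunit of succinate dehydrogenase, at 62.8, 71.7 and 67.3 CPM in WT and 85.5, 72.5 and 82.7 in cpt1Δ ept1Δ, a change of 0.26 ± 0.08 (edgeR, Benjamini-Hochberg adjusted p = 0.468). RIP1, the Rieske iron-sulfur protein of complex III, stood at 297, 299 and 293 CPM in WT and at 332, 331 and 333 in cpt1Δ ept1Δ, groups that were tight and apart. COR1, a core subunit of the same complex, was at 0.16 ± 0.05. SDH2 and SDH3 of complex II were at 0.21 and 0.15, and ATP20 and ATP16 of the ATP synthase at 0.18 and 0.13.

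The mean of that list relative to WT was -0.02, -0.02 and 0.04 in the WT libraries, 0.17, 0.07 and 0.11 in cpt1Δ ept1Δ and 0.15, 0.20 and 0.10 in ect1Δ pct1Δ, on the log2 scale. Both deletion strains were thus above every WT library. Against ect1Δ pct1Δ directly, 32 of the 39 genes were lower in cpt1Δ ept1Δ, beside 51.6% of all genes lower and 48.4% higher in that comparison, with a median of -0.05 and 0 called. Replicate 3 of cpt1Δ ept1Δ, with the high mitochondrial ribosomal RNA, lay between the other cpt1Δ ept1Δ libraries in its list mean, and the part of mitochondrial RNA in the result was not tested. Over all alternatives, including those without either of these libraries, the median of the list ranged from 0.09 to 0.14. The CCAAT box of the Hap2/3/4/5 activator, CCAAT on either strand, was found in 34 of the 39 promoters, against 2381 of 5626 (42.3%). The element of the general stress activator Msn2, AGGGG on either strand, was found in 17 of the 39, against 1270 of 5626 (22.6%). The part of either factor in the result was not tested.

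Genes of the tricarboxylic acid and glyoxylate cycles and gluconeogenesis had a median of 0.07, with 18 of 21 above 0 (49.2% of all genes), 7 higher at an unadjusted p below 0.05 (2.58% of all genes) and 0 called. CIT1, the mitochondrial citrate synthase gene, stood at 181, 182 and 179 CPM in WT and at 224, 206 and 193 in cpt1Δ ept1Δ. The isocitrate dehydrogenase subunit genes IDH1 and IDH2 were both at 0.19 ± 0.06, and the aconitase gene ACO1 was at 0.17 ± 0.07. The list mean did overlap between groups, at 0.05, 0.00 and -0.06 in WT and at 0.05, 0.07 and 0.09 in cpt1Δ ept1Δ. The CCAAT box was present in 16 of its 21 promoters and the Msn2 element in 8 of the 21. Glycolysis and fermentation (25 tested) had a median of -0.01 with 0 called.

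Transcripts of the mitochondrial genome itself passed the filter in 3 cases, and their values rest on 1 library. 21S_rRNA stood at 4.08, 23.1 and 15.4 CPM in WT and at 4.54, 1.59 and 152 in cpt1Δ ept1Δ. The fitted change of 2.04 was not called (edgeR, Benjamini-Hochberg adjusted p = 0.948), and the median of the list, 1.48, ranged from -1.81 to 2.27 over the alternatives. Of 31 mitochondrially encoded genes, these 3 alone passed.

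**Figure D4:**
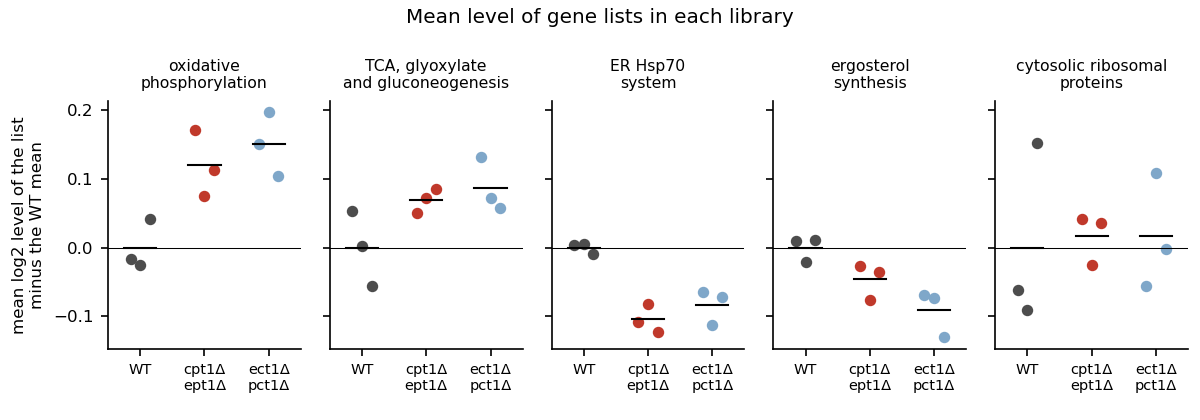
Mean log2 level of the genes of 5 lists in each library, minus the mean of the WT libraries (y axis), for WT (grey), cpt1Δ ept1Δ (red) and ect1Δ pct1Δ (blue); short lines are group means. The red points lie above the grey ones for oxidative phosphorylation and below them for the ER Hsp70 system and ergosterol synthesis, all by less than 0.2, and 1 WT library stands apart for ribosomal proteins. The ER Hsp70 mean includes HAC1 and the called gene KAR2, and the mean without them was not taken.

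Cell wall genes held 1 called member, CCW22, among 33 tested, with a median of 0.02. At an unadjusted p below 0.05 were 4 higher and 2 lower, beside 2.58% and 2.66% of all genes. CWP2, a major mannoprotein of the wall, stood at 823, 833 and 820 CPM in WT and at 978, 1019 and 1004 in cpt1Δ ept1Δ, groups that were far apart for their spread. Its change of 0.28 ± 0.06 missed the threshold (edgeR, Benjamini-Hochberg adjusted p = 0.0861) and passed it with library totals, with DESeq2 and without ect1Δ pct1Δ replicate 2. GAS5, a glucanosyltransferase that remodels the wall, stood at 355, 340 and 296 CPM in WT and at 394, 403 and 400 in cpt1Δ ept1Δ, a change of 0.27 ± 0.06. It was not called by edgeR, and of the 19 settings only DESeq2 called it (adjusted p = 0.0363). EXG1, a glucanase gene, was at 0.15, and SCW10 and HSP150 at -0.16 each. Cell wall integrity signalling (17 tested) had a median of -0.02. GPI anchor assembly (26 tested), which supplies many wall proteins with their lipid anchor, had a median of 0.02. Of its genes 20 were above 0, beside 49.2% of all genes. Neither list had a called member.

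Growth programmes were close to WT, and targets of the stress activator Msn2 lay slightly above it. Cytosolic ribosomal proteins had a median of 0.01 over 132 genes and ribosome biogenesis a median of -0.02 over 44 genes, with 0 called in each. Of the biogenesis genes 9 were above 0 and 35 below, against 49.2% of all genes above 0. Their mean relative to WT overlapped between groups. It was -0.00, -0.01 and 0.01 in WT and -0.04, 0.02 and -0.06 in cpt1Δ ept1Δ on the log2 scale. Targets of the general stress activator Msn2 had a median of 0.09, 18 of 27 above 0 (49.2% of all genes) and 0 called. Their mean relative to WT was -0.02, 0.00 and 0.01 in WT and 0.13, 0.02 and 0.09 in cpt1Δ ept1Δ. These means did not overlap but almost touched, at 0.015 in WT replicate 3 and 0.021 in cpt1Δ ept1Δ replicate 2. HSP26, a small heat shock protein gene, stood at 26.7, 26.2 and 31.1 CPM in WT and at 39.8, 35.8 and 39.9 in cpt1Δ ept1Δ, a change of 0.47 ± 0.11 without overlap (edgeR, Benjamini-Hochberg adjusted p = 0.179). Over 52 lists with a tested member, 20 had a median above 0 and 4 a called member. Without the mitochondrially encoded genes, 49 of 51 medians lay within 0.1 of 0.

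**Figure D5:**
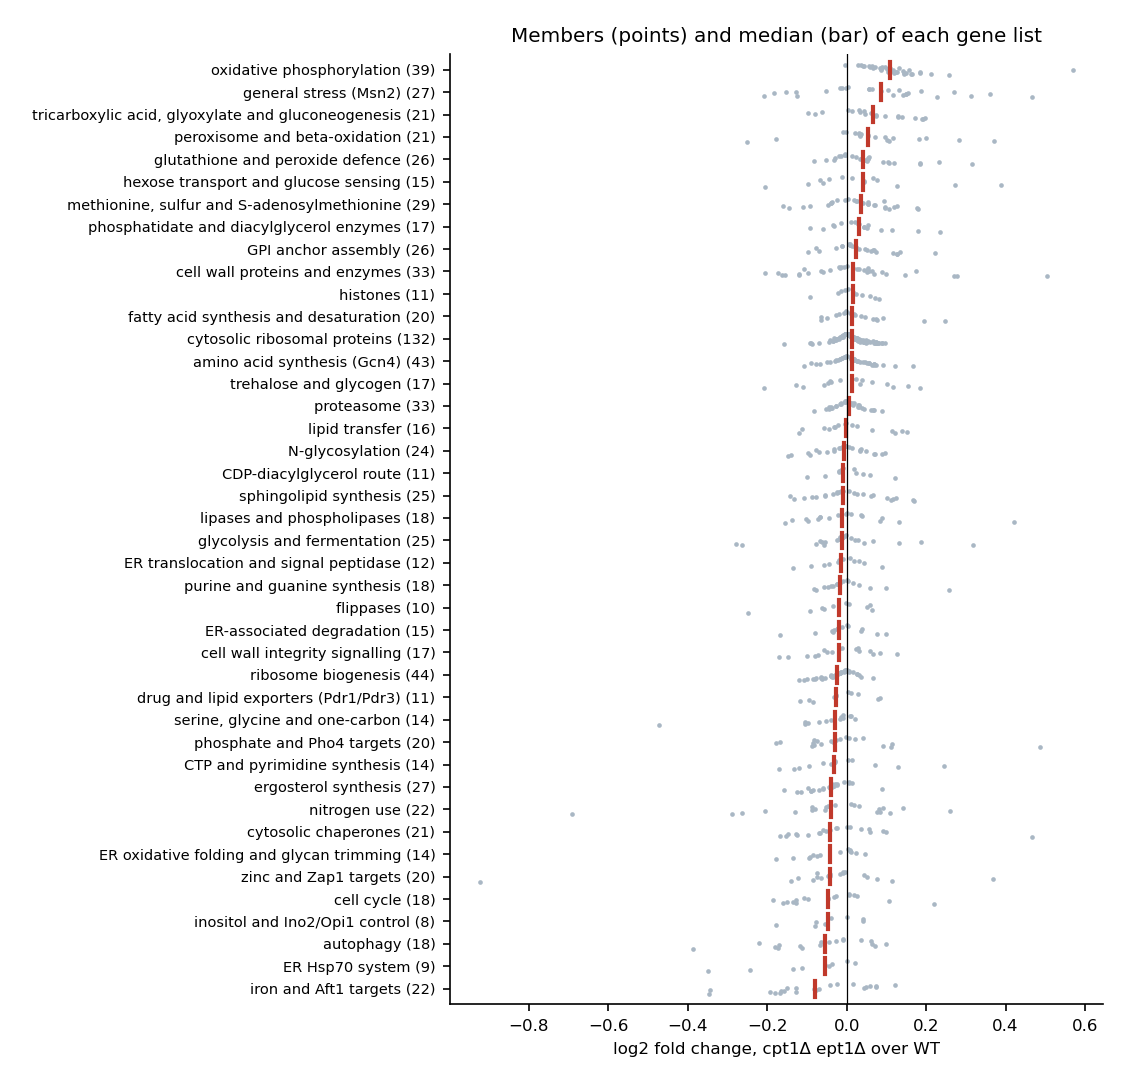
Log2 fold change of cpt1Δ ept1Δ over WT (x axis) for each tested member (points) and the median (red bar) of the gene lists with at least 8 tested genes, ordered by median; numbers in brackets are tested genes, and mitochondrially encoded and marker lists are left out. Oxidative phosphorylation has the highest median, 0.11, and iron and Aft1 targets the lowest, -0.08.

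The 10 uncalled genes with the smallest p-values on the higher side were CWP2, YER053C-A, IMD2, CYB2, GAS5, FAA1, HSP26, WSC4, CLB1 and COS1, with changes of 0.22 to 0.47. CYB2, the L-lactate dehydrogenase gene of the mitochondrial intermembrane space, stood at 48.6, 43.4 and 44.2 CPM in WT and at 72.8, 57.1 and 54.8 in cpt1Δ ept1Δ. On the lower side were YER188W, IRC7, HAC1, RTS3, NDT80, CPS1, NCW2, SMP1, TOS8 and BNA2, with changes of -0.24 to -0.95. YER188W, an open reading frame near a chromosome end, stood at 7.07, 8.40 and 8.30 CPM in WT and at 3.71, 3.72 and 4.70 in cpt1Δ ept1Δ (edgeR, Benjamini-Hochberg adjusted p = 0.0720), and limma called it. BNA2, which starts the breakdown of tryptophan towards NAD, stood at 28.0, 27.3 and 29.6 CPM in WT and at 18.7, 20.5 and 23.6 in cpt1Δ ept1Δ. Among the genes of both sides, DESeq2 called CWP2, YER053C-A, CYB2, GAS5, FAA1, IRC7, HAC1 and SMP1. IMD2 is nearly identical to IMD1, COS1 has several near copies, and IRC7 overlaps YFR056C, so the values of IMD2, COS1 and IRC7 are uncertain.

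Marker lists for other cell states had 0 called members. The summed level of 6 genes specific to mating type a was 1722 to 1869 CPM in WT and 1792 to 1865 in cpt1Δ ept1Δ, and that of 4 alpha-specific genes 49.0 to 53.4 and 51.2 to 51.7, so both strains had the pattern of a cells. Stationary-phase markers (13 genes) summed to 345 to 366 CPM and 330 to 379, pheromone response genes (13) to 1002 to 1043 and 1015 to 1021, and flocculation genes (5) to 36.0 to 60.0 and 45.3 to 54.9. Meiosis genes (12) summed to 105 to 110 and 98.6 to 105 CPM. The 11 tested meiosis genes had a median of -0.08, with 3 above 0 and 8 below, from -0.52 for NDT80 to 0.31 for SPS4. Their mean relative to WT was 0.06, -0.04 and -0.02 in the WT libraries and -0.07, -0.08 and -0.12 in cpt1Δ ept1Δ. These means did not overlap, but they include NDT80, which lies beside the deleted EPT1, and the mean without NDT80 was not taken. IME2, a kinase gene of meiosis, was at -0.51 ± 0.18. The 4 alpha-specific genes had a median of -0.14, from -0.43 for MF(ALPHA)1 to 0.29 for STE3. No marker gene was at 0. The part of these cell states in the results above was not tested.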

How the data were processed

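Polyadenylated RNA of 9 yeast libraries was sequenced from random-primed cDNA, per the labels' protocols. The authors deposited raw counts per gene beside FPKM values, per the file headers; HISAT2 2.2.1, HTSeq 0.6.1 and build R64 are named in the submitters' processing notes, with no role or order. No source used here says whether counting used strand. The deposited FPKM equal count over exonic length and library total in 100% of 64098 values (within 0.0051 or a relative 0.002) and served only as an alternative. In 4 lines values were removed before use (at most 0.0158% of a library), and 6 columns of 3 libraries with no matching sample were not used.

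The tests on counts used edgeR 4.0.16 under R 4.3.3 (glmQLFit, glmQLFTest, TMM factors of 0.981 to 1.02, filterByExpr by group, which left 6083 genes and removed 1039, with at most 1.19 CPM over the 6 libraries). A single fit held all 9 libraries, with group as its only term (biological coefficient of variation 6.24%). Two-sided p-values were adjusted over 6083 genes by the Benjamini-Hochberg method, and a gene was called below 0.05. The SE is the log2 fold change over the square root of F, and 95% intervals use the fit's degrees of freedom. CPM are scaled by TMM. An exact permutation test of 3 libraries against 3 cannot give a p below 0.1. The script was tested on simulated data. Libraries of a group correlated with r of 0.991 to 0.994 across genes and differed by more than sampling noise (chi-square per gene 2.31 to 8.99).

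The gene lists (52, with 924 entries for those written by name) and the genes named were chosen with earlier results of these data known, so their counts are descriptions. Named were the deleted genes and 2 neighbours on either side, PAH1 and DGK1, all called genes, the 10 uncalled genes with the smallest p in each direction, every member of the phospholipid, ester, ER Hsp70 and zinc lists, the 3 members with the smallest p of each other list, and genes called between the deletion strains. Other list members are given by value after these were seen, and MCD4, PCD1, PAN1 and MRX15 for their promoter element. Sequences are from the RefSeq R64 genome, where 6033 of 6045 matched genes had the files' start and end. Alternatives were other scalings, filters, DESeq2 1.42.0, limma 3.58.1 on log2(FPKM + 1) and log2(FPKM + 0.1), 6 libraries only, a replicate block and each library left out.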

Additional observations from a re-analysis of the deposited data

Results flagged for a closer look

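A direct test of cpt1Δ ept1Δ against ect1Δ pct1Δ separated 8 genes beyond the deleted ones (edgeR, Benjamini-Hochberg), and in all 8 the cpt1Δ ept1Δ libraries were uncalled against WT. ARR3, the arsenite exporter gene, was 3.23 higher in cpt1Δ ept1Δ on the log2 scale, at 7.29, 6.99 and 8.77 CPM against 0.622, 0.601 and 1.40, and its activator gene ARR1 was 0.57 higher. YBR242W, of unknown function, was 1.67 higher, at 86.8, 86.3 and 90.9 CPM against 29.1, 24.8 and 30.4. YGR201C and STF2, the genes beside PCT1 and ECT1, had differences of -1.57 and -0.72. IMD2, an enzyme gene of guanine nucleotide synthesis, had a difference of -0.53, YNL134C one of -0.29 and IRC7 one of -0.53. IRC7, a beta-lyase gene, was the 1 of these whose cpt1Δ ept1Δ libraries lay below WT without overlap, at 75.6, 81.7 and 88.1 CPM against 93.9, 115 and 111 in WT and 117, 119 and 119 in ect1Δ pct1Δ. The cause of these differences was not tested.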

How the results depend on the processing

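In place of 6 genes called against WT, DESeq2 called 14 (an adjusted p was given as NA for 1062), limma 5 and library totals 7. Leaving out 1 library gave 2 to 7, the lowest without cpt1Δ ept1Δ replicate 2. Unadjusted p-values below 0.05 numbered 319, and 238 to 540 with 1 library left out, the highest without WT replicate 3. Calls between the deletion strains numbered 8, 6 to 9 with 1 library left out, and 13 without WT replicate 3 and cpt1Δ ept1Δ replicate 3, which was added with the data in view. List medians above 0 numbered 20, and 18 to 25 with 1 library left out. Where a library was left out, the remaining pair was assumed to vary like the other groups. YDL057W and ZRT1 were called in all 19 alternatives. Of 4403 values of named genes under alternatives 0 reversed a call's direction, 15 lost a call and 14 gained one. The replicate block gave 5 calls against WT and 7 between the strains; it ended the call of EEB1 (edgeR, Benjamini-Hochberg adjusted p = 0.0723). The numbers do not pair the samples, since deviations of same-numbered libraries correlated with r of -0.268 to 0.264, over 0.1 in 1 of 9 pairs. Intervals were widest for genes below 22.8 CPM. The cause of these changes was not tested.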

Other observations

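Some nutrient genes differed at an unadjusted p below 0.05 and were not called over all genes. Nitrogen use genes (22 tested) had a median log2 fold change of -0.04 and 0 called. At an unadjusted p below 0.05 were 3 of them, all lower, beside 2.66% of all genes lower and 5.25% in either direction. DAL80, a repressor gene of nitrogen catabolism at a low level, stood at 7.43, 5.87 and 6.31 CPM in WT and at 5.02, 3.63 and 3.81 in cpt1Δ ept1Δ. That is a difference of -0.69 ± 0.21. DAL5, the allantoate permease gene, was at -0.29 ± 0.10 and PUT1, the proline oxidase gene, at -0.26 ± 0.10; the groups overlapped for DAL5 and not for PUT1. Iron and Aft1 targets (22 tested) had a median of -0.08 and 0 called, and their mean relative to WT was -0.42, -0.05 and 0.11 in the cpt1Δ ept1Δ libraries on the log2 scale, a wide spread within the group. ARN1, a siderophore transporter gene, was at 127, 183 and 210 CPM there and at 199, 259 and 209 in WT.

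HXT4, a hexose transporter gene, stood at 350, 364 and 354 CPM in WT and at 296, 316 and 314 in cpt1Δ ept1Δ, a difference of -0.21 ± 0.06, while HXT3, another transporter gene of glucose-grown cells, was at 0.13 ± 0.05. URA1, the dihydroorotate dehydrogenase gene of pyrimidine synthesis, stood at 428, 414 and 425 CPM in WT and at 383, 370 and 372 in cpt1Δ ept1Δ, a difference of -0.17 ± 0.05. The CTP synthase gene URA8, whose product feeds the CDP-alcohol branches, was at -0.13 ± 0.06. None of these 4 was called (edgeR, Benjamini-Hochberg adjusted p from 0.326 to 0.945), and the pyrimidine list (14 tested) had a median of -0.03.

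Against ect1Δ pct1Δ, 51.6% of all genes were lower and 48.4% higher in cpt1Δ ept1Δ, with a median of -0.00. In that comparison all 11 histone genes were lower, with a median of -0.10, and 22 of 27 Msn2 targets were lower, with a median of -0.16. Of 43 amino acid synthesis genes 36 were higher, with a median of 0.03. In these 3 lists 0 genes were called in that comparison. The list means relative to WT overlapped between the deletion strains for Msn2 targets and amino acid synthesis. For Msn2 targets they were 0.13, 0.02 and 0.09 in cpt1Δ ept1Δ and 0.12, 0.26 and 0.27 in ect1Δ pct1Δ. For histones they were 0.04, -0.01 and 0.01 against 0.07, 0.15 and 0.11, without overlap, while the WT libraries ranged from -0.07 to 0.12.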
